A study of Mus musculus with 12 samples.

Results

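The respiratory chain genes of the R6/1 retina and striatum were taken as 107 protein-coding genes of 17579 genes in the count table. They were chosen by symbol alone: 13 genes of the mitochondrial genome (mt- genes) and 94 nuclear genes whose symbol begins with Ndufa, Ndufb, Ndufc, Ndufs, Ndufv, Uqcr, Cox4, Cox5, Cox6, Cox7, Cox8 or Atp5, together with Cyc1 and the 4 Sdh genes. The annotation holds 108 such genes, and the one outside the table, Cox8c, was not analysed here. The symbol Atp5o stands on more than 1 Ensembl ID, and the abundant one is called Atp5o below.

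The libraries came from male R6/1 mice and male wt littermates on a C57Bl/6 background (so labelled, and C57BL/6 J in the methods), aged 13 to 15 weeks, with retina and striatum taken from the same animals. R6/1 mice model Huntington's disease. Their transgene holds the first exon of the human huntingtin gene, CAG expanded, and so a fragment rather than the whole gene. There were 3 libraries in each of the 4 groups (wt retina, R6/1 retina, wt striatum, R6/1 striatum). RNA of 3 to 4 mice was pooled for each, so that n = 3 pools throughout and SDs describe pools, not animals. The deposited values are estimated counts, and levels are given below as CPM, the usual count measure relative to library size, after TMM scaling.

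Oxidative phosphorylation is carried out in the inner mitochondrial membrane. Complexes I and II pass electrons to coenzyme Q, complex III hands them to cytochrome c, complex IV reduces oxygen, and complex V makes ATP from the proton gradient. The mitochondrial genome encodes core membrane subunits of complexes I, III, IV and V. Nuclear genes encode all other subunits and the whole of complex II. Photoreceptors and medium spiny neurons, the main neurons of the striatum, both have a high energy demand.

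Library totals ran from 14070445 to 22432431 counts. The tissues carried their markers: in wt mice all 10 rod genes were called higher in the retina, and 8 of 9 medium spiny neuron genes higher in the striatum. The cell type markers also moved with genotype. The summed level of the 10 rod genes was 63140 to 71443 CPM in wt retinas and 19392 to 27337 CPM in R6/1 retinas, and all 10 fell. That of 5 cone genes was 912 to 1033 CPM in wt and 66.7 to 81 CPM in R6/1 retinas, and that of 6 microglial genes 18.9 to 19.6 CPM and 26.9 to 29.9 CPM. The 9 medium spiny neuron genes summed to 3760 to 5210 CPM in wt striata and 1104 to 2122 CPM in R6/1 striata. Sums of the 7 Müller glia and astrocyte genes were lower in R6/1 mice without overlap, at 3039 to 3530 against 2561 to 2859 CPM in retina and 2472 to 2760 against 1909 to 2287 CPM in striatum, although 3 of the 7 rose in the retina and 1 fell in each tissue. Those of 5 red blood cell genes were also lower, at 40.7 to 58.2 against 19.8 to 31.6 CPM in retina (3 fell) and 124 to 164 against 83.4 to 96.4 CPM in striatum (2 fell). Endothelial sums were 115 to 123 against 96.3 to 109 CPM in retina and 171 to 180 against 162 to 163 CPM in striatum, and oligodendrocyte sums 37.8 to 42.8 against 45.8 to 50.1 CPM and 6150 to 6854 against 5503 to 6017 CPM. In the striatum the microglial sum was 269 to 291 CPM in wt and 238 to 264 CPM in R6/1 mice. In bulk tissue, fewer cells of a type and less RNA per cell cannot be told apart, and the part of these markers in the results below was not tested. The human transgene was not analysed here.

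The mt- genes took a large share of every library, and the share was larger in R6/1 than in wt retinas. They held 7.61%, 7.9% and 8.18% of all counts in the 3 wt retinas and 9.63%, 9.5% and 8.76% in the 3 R6/1 retinas, which did not overlap. In the wt striata they held 12.7%, 12.9% and 11.4%, and in the R6/1 striata 12%, 11.3% and 11.7%, which overlapped. The group means were 7.9% ± 0.281 (SD, n = 3) in wt retina, 9.29% ± 0.47 in R6/1 retina, 12.3% ± 0.847 in wt striatum and 11.7% ± 0.391 in R6/1 striatum.

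The 94 nuclear genes together held far less. Their share was 0.562%, 0.592% and 0.552% in wt retinas and 0.726%, 0.666% and 0.655% in R6/1 retinas, so that all R6/1 retinas again lay above all wt retinas. It was 0.69%, 0.705% and 0.66% in wt striata and 0.707%, 0.714% and 0.685% in R6/1 striata. These shares depend on what else the library holds, and the fall of rod transcripts in R6/1 retinas enters their denominator.

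The ratio of mt- to nuclear counts does not depend on that denominator. It was 13.5, 13.4 and 14.8 in wt retinas and 13.3, 14.3 and 13.4 in R6/1 retinas, and these overlapped. It was 18.4, 18.3 and 17.2 in wt striata and 17, 15.8 and 17.1 in R6/1 striata, where each R6/1 library lay below each wt library. Both striatal groups lay above both retinal groups. On the log2 scale the mean R6/1 minus wt difference of this ratio was -0.03 in the retina and -0.11 in the striatum, and the wt retina minus wt striatum difference was -0.37, against a spread of 0.0656 (SD) between libraries of a group. No test was run on the ratio because it is a score over chosen genes. With another measure, the difference between the median log2 CPM of the mt- and of the nuclear genes, the retinal value turned to 0.04, and it also changed sign when wt retina replicate 3 was left out (0.02).

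**Figure D1:**
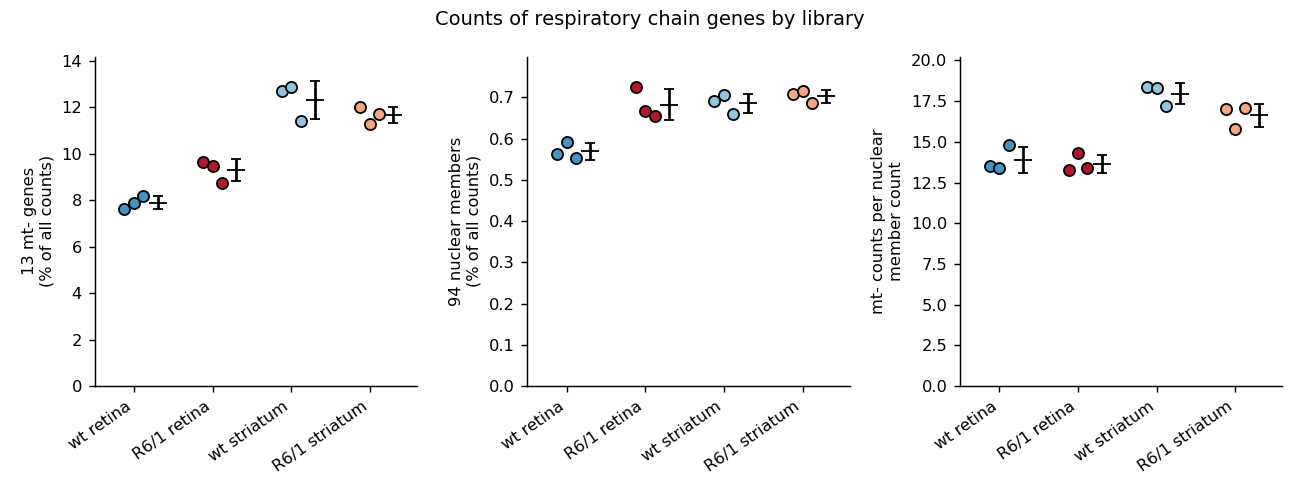
Each point is 1 library, and the bar beside each group is its mean ± SD (n = 3 pools). The panels show the 13 mt- genes and the 94 nuclear genes as a percent of all counts, and the mt- counts per nuclear count. Both shares were higher in all 3 R6/1 retinas than in all 3 wt retinas, while the ratio lay between 13.3 and 14.8 in all 6.

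Levels between genes were compared per kilobase of transcript, using the median length of annotated transcripts. Which transcripts were expressed was not examined, so these levels depend on the annotation. The median mt- gene stood at 5650 CPM per kb in wt retina and at 8514 CPM per kb in wt striatum, whereas the median nuclear gene stood at 46.1 and 62.9 CPM per kb. Among the mt- genes of wt retina, mt-Co1, the catalytic core of complex IV, was the highest at 14541 ± 616 CPM per kb. It was followed by mt-Atp6 at 11087 ± 435 and mt-Cytb at 10141 ± 411 CPM per kb, and the next was mt-Nd1 at 8086 ± 361 CPM per kb, an order of the deposited counts that changes with the chromosome 1 copies described below. The lowest was mt-Nd6, at 481 CPM per kb in wt retina and 775 ± 73.4 CPM per kb in wt striatum. It is the single protein gene read from the other strand of the mitochondrial genome. The libraries were made from poly(A) mRNA, and the part of this in the mt-Nd6 level was not tested. Of the nuclear genes, Atp5b, the catalytic β subunit of complex V, was highest in both wt tissues, at 412 ± 9.85 CPM per kb in retina and 428 ± 16.1 in striatum. The 8 Ndufaf genes, whose products assemble complex I without being part of it, had a median of 11.2 CPM per kb in wt retina, below the median of 45.4 for the 36 complex I subunit genes.

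The mt- gene values need a caution that the sequences show. A stretch of the mitochondrial genome has been copied into nuclear chromosome 1, and the annotation lists 7 pseudogenes there, on the minus strand between positions 24611535 and 24616197 (GRCm38). The table counts them as genes of their own. Gm28661 (mt-Co2), Gm28437 (mt-Co3), Gm10925 (mt-Atp6), Gm10222 (mt-Nd4l) and Gm28439 (the first 876 bases of mt-Nd4) had no mismatch to the mt- gene over their whole length. Gm29216, 492 bases long, matched 482 of 483 aligned bases of mt-Co1, and Gm28438 matched 344 of 345 bases of mt-Nd3. The bases of Gm29216 outside the aligned stretch were not compared. The first 60 bases of mt-Nd3 and of its copy, read 5′ to 3′ from the gene's first base, are shown because they hold the only mismatch over the 345 aligned bases, T3C, in capitals:
mt-Nd3: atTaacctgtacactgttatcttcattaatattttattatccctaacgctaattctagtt
Gm28438: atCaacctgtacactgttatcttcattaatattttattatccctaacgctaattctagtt

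For mt-Co1 the single difference over the 483 aligned bases was A1066T, counted from the gene's first base. It lies near the start of the aligned stretch, shown over 60 bases from position 1063:
mt-Co1: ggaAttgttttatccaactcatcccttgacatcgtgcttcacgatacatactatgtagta
Gm29216: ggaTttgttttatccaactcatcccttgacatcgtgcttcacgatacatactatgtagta

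Reads from such pairs cannot be told apart over most of their length, and the counts of the copies were not small. Gm28661 held 41.2% to 62.6% of the counts of the mt-Co2 pair over the 12 libraries, Gm28437 10.2% to 43.9% of the mt-Co3 pair and Gm28438 15.5% to 58.9% of the mt-Nd3 pair. Gm10925 ranged from 0% to 14.5% of the mt-Atp6 pair, and Gm29216, Gm10222 and Gm28439 took at most 6%, 3.93% and 0.227% of theirs. The split varied between libraries of one group, from 41.2% to 58.8% for mt-Co2 in R6/1 striata. When the copy was added to mt-Co2, the coefficient of variation of the pair fell from 17.2% to 2.48% in wt retinas, from 15.9% to 4.63% in R6/1 retinas and from 18.1% to 1.66% in R6/1 striata, but went from 4.43% to 8.01% in wt striata. For mt-Nd3 the coefficient fell from 15.6% to 3.16% in R6/1 retinas and from 7.54% to 1.13% in R6/1 striata. It rose from 6.33% to 8.25% in wt retinas and from 11.7% to 17.8% in wt striata. For mt-Co3 it fell in all 4 groups, and for mt-Atp6 it fell in both wt groups and rose in both R6/1 groups. The mt-Co2, mt-Co3, mt-Nd3 and mt-Atp6 values are given below as deposited and with their copies added. This step was chosen after the data were seen. With the copies added, the ratio of mt- to nuclear counts was 14.8, 14.8 and 15.7 in wt retinas, 14.5, 15.5 and 14.9 in R6/1 retinas, 20.4, 20.9 and 19 in wt striata and 18.1, 17.7 and 18.6 in R6/1 striata. The order of levels per kilobase in wt retina then became mt-Co1 at 15054 ± 624, mt-Co2 at 11515 ± 329, mt-Atp6 at 11184 ± 379, mt-Cytb at 10140 ± 411, mt-Co3 at 8912 ± 451 and mt-Nd1 at 8085 ± 362 CPM per kb. The means of mt-Co2 and mt-Atp6 lay about 1 SD apart. The median mt- gene moved to 5816 CPM per kb in wt retina and to 11559 CPM per kb in wt striatum.

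Overlapping reading frames are a second limit. mt-Atp8 and mt-Atp6, both subunits of the membrane part of complex V, share 43 bases of 1 transcript (chrM:7927-7969, plus strand), shown with the start codon of mt-Atp6 at the beginning:
mt-Atp8 and mt-Atp6 overlap: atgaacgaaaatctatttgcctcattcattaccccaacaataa

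mt-Nd4l and mt-Nd4 share 7 bases in the same way, and mt-Nd5 and mt-Nd6 share 14 bases on opposite strands. The library kit kept strand, but the sources used here do not say whether the counting used it.

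To ask how the R6/1 genotype altered the respiratory chain of the retina, the 3 R6/1 retinas were compared with the 3 wt retinas. With edgeR no member was called lower. Of the 93 nuclear genes tested, 23 rose (24.7%), against 9.58% of all 16582 genes tested called higher and 12.7% called lower; among genes with a mean of at least 10 CPM, 12.1% were called higher. The median log2 fold change of the nuclear genes was 0.15 and that of all genes 0.01. Of the 13 mt- genes, 2 rose, with a median of 0.16. The changes were small, between 0.17 and 0.41 on the log2 scale for the nuclear genes called. The test was edgeR's quasi-likelihood F-test with Benjamini-Hochberg adjustment over all genes, with 0.05 as the limit of the adjusted p. The number of nuclear genes called dropped to 11 when wt retina replicate 1 was left out and to 14 when wt retina replicate 3 or R6/1 retina replicate 1 was, and lay between 20 and 26 for the other 3 libraries. With DESeq2, 7.65% of all genes were called higher and 10.8% lower, and 1 nuclear gene, Ndufa4, and mt-Nd3 were among those called lower. With the replicate number as a block, 9.81% of all genes were called higher. Scaling to library totals shifted the median of all genes to 0.13 and that of the nuclear genes to 0.26, and 23.4% of all genes were then called higher and 8.71% lower.

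Complex I, the entry point for electrons from NADH, held 10 of the 23 genes that rose, out of 36 tested (median 0.14). Ndufab1, the mitochondrial acyl carrier protein, stood at 53.1, 52.7 and 51.9 CPM in wt retinas and at 68.4, 66.6 and 68.5 CPM in R6/1 retinas. The groups were far apart, and the rise was 0.40 ± 0.06 (log2 fold change ± SE, adjusted p = 0.000169, edgeR). Ndufa8, an accessory subunit of complex I, was measured at 25, 27.9 and 25.9 CPM in wt and 36.1, 32.1 and 34.1 CPM in R6/1 retinas. It rose by 0.41 ± 0.08 (adjusted p = 0.00122, edgeR). Ndufs1, the large iron-sulphur subunit and one of 7 nuclear core subunits, had 140, 145 and 142 CPM in wt and 177, 161 and 163 CPM in R6/1 retinas, a rise of 0.26 ± 0.06 (adjusted p = 0.00412, edgeR). Ndufv1, which binds NADH, was the other core subunit called, at 0.19. Ndufa9, Ndufa13, Ndufb6, Ndufb8, Ndufc2 and Ndufs4 completed the 10. None of the 8 Ndufaf genes passed in either direction by edgeR or DESeq2.

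Complex II is succinate dehydrogenase, which also works in the citric acid cycle. Its flavoprotein Sdha was the most abundant of the 4 per kilobase and did not pass (375, 362 and 401 CPM in wt, 384, 349 and 371 CPM in R6/1 retinas, log2 fold change -0.01). Sdhd, a membrane anchor, was at 32.4, 36.5 and 39 CPM in wt and 49, 42.8 and 40.5 CPM in R6/1 retinas. It rose by 0.32 ± 0.09 (adjusted p = 0.0139, edgeR) but missed the threshold without wt retina replicate 1 or without R6/1 retina replicate 1, where the adjusted p reached 0.0878. The other anchor Sdhc had a log2 fold change of 0.13 and the iron-sulphur subunit Sdhb one of 0.20, and neither passed.

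In complex III, Uqcrc2, a core protein, and Uqcrfs1, the Rieske iron-sulphur protein, rose by 0.30 and 0.32, out of 9 genes with a median of 0.13. Complex IV had the highest median of the complexes, 0.22 over 18 genes tested, and 6 of them rose. Cox8a, a small accessory subunit, was at 57.2, 65.3 and 57.9 CPM in wt and 83.9, 71.9 and 71.7 CPM in R6/1 retinas (0.37 ± 0.08, adjusted p = 0.00294, edgeR). Cox7b, encoded on the X chromosome, was at 43.3, 50.3 and 44.1 CPM in wt and 59.8, 56.6 and 52.2 CPM in R6/1 retinas (0.33 ± 0.08, adjusted p = 0.00596, edgeR). Cox4i1, Cox6b1, Cox6c and Cox7c were the others. Cox4i1 lost its call without wt retina replicate 1 or 3, and Cox7c without wt retina replicate 3, with adjusted p up to 0.0732 and 0.0525.

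In complex V, 4 of 18 genes rose (median 0.16). Atp5o, which encodes the peripheral stalk subunit OSCP, was at 62.3, 73.4 and 67.7 CPM in wt and at 88.6, 84.5 and 80.4 CPM in R6/1 retinas, a rise of 0.35 ± 0.07 (adjusted p = 0.00199, edgeR). Atp5a1, the α subunit, Atp5h and Atp5g3 were the others. Atp5g3 missed the threshold without wt retina replicate 1 or 3 or R6/1 retina replicate 1 (adjusted p up to 0.102). The 6 nuclear genes with the smallest p, namely Ndufab1, Ndufa8, Atp5o, Cox8a, Ndufs1 and Cox7b, passed in each of the 6 fits that left out 1 library.

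mt-Atp8 and mt-Atp6, neighbours that share bases of 1 transcript as given above, were the 2 mt- genes that rose. Their calls are therefore not independent. mt-Atp8 was at 747, 786 and 797 CPM in wt and 998, 919 and 893 CPM in R6/1 retinas (0.30 ± 0.07, adjusted p = 0.00447, edgeR). mt-Atp6 was at 7208, 7728 and 7715 CPM in wt and 9303, 9137 and 8576 CPM in R6/1 retinas (0.29 ± 0.08, adjusted p = 0.0228, edgeR). All R6/1 values of both genes lay above all wt values. mt-Atp8 passed without any 1 library, but mt-Atp6 did not without R6/1 retina replicate 1 or without any one of the 3 wt retinas (adjusted p up to 0.117).

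At the other end, mt-Co1, mt-Nd4 and mt-Nd4l differed least. mt-Co1 was at 21368, 23042 and 22990 CPM in wt and 23723, 21904 and 21273 CPM in R6/1 retinas, with a log2 fold change of 0.02. mt-Nd4 also gave 0.02 and mt-Nd4l 0.03, and leaving out 1 library turned the sign of all 3. mt-Nd1, mt-Nd2, mt-Nd5, mt-Cytb and mt-Nd6 lay between 0.11 and 0.24, mt-Co3 at 0.21 and mt-Co2 at 0.16, and none of them passed. With DESeq2, 6 mt- genes were called higher: mt-Atp6, mt-Atp8, mt-Nd1, mt-Nd2, mt-Nd6 and mt-Co3.

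mt-Nd3, a core membrane subunit of complex I, depended on its copy. As deposited it was at 700, 796 and 780 CPM in wt and 702, 643 and 516 CPM in R6/1 retinas, a log2 fold change of -0.26 ± 0.11 (adjusted p = 0.109, edgeR; adjusted p = 0.0228, DESeq2). With Gm28438 added it was at 970, 1070 and 924 CPM in wt and 1285, 1183 and 1255 CPM in R6/1 retinas, and the value was 0.36 ± 0.07 (adjusted p = 0.00152, edgeR). The direction therefore turned. Gm28438 held 27.8%, 25.6% and 15.5% of the counts of the pair in wt retinas and 45.4%, 45.7% and 58.9% in R6/1 retinas, without overlap. mt-Co2 went from 0.16 ± 0.16 to 0.26 ± 0.08 (adjusted p = 0.0245, edgeR) when Gm28661 was added, since its values changed from 3632, 3302 and 4659 CPM in wt and 4847, 4316 and 3524 CPM in R6/1 retinas to 7619, 8039 and 7970 CPM and 9627, 9195 and 8811 CPM. mt-Atp6 stayed at 0.29 (adjusted p = 0.0144, edgeR) and mt-Co3 at 0.21 (adjusted p = 0.0737, edgeR). mt-Nd1, which has no copy among the 7, then also passed (adjusted p = 0.0353, edgeR). Counting the copies, 5 of 13 mt- genes rose in the retina, beside 9.58% of all genes called higher and 12.7% lower in that fit.

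**Figure D2:**
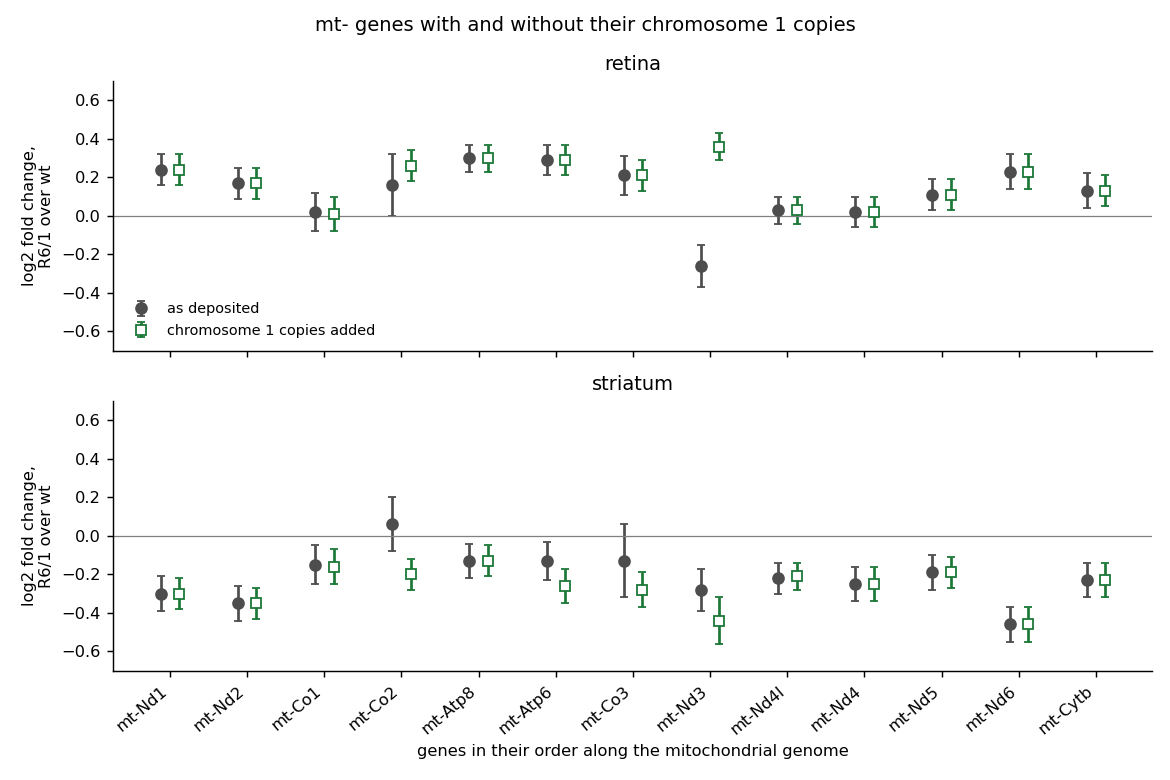
Log2 fold change of each mt- gene, R6/1 over wt, in retina (upper panel) and striatum (lower panel), with SE from edgeR. Filled circles are the counts as deposited, and open squares the counts with the chromosome 1 copies added. mt-Nd3 in the retina moved from -0.26 to 0.36, and mt-Co2 in the striatum from 0.06 to -0.20.

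The same comparison was made in the striatum, the brain region most affected in Huntington's disease. There the medians of the nuclear and the mt- genes pointed the other way, but few members passed. None of the 93 nuclear genes tested passed with edgeR. DESeq2 called 1 lower, Ndufa5 (-0.30, adjusted p = 0.0446), beside 4.81% of all genes called lower and 1.06% higher by that tool. Over all 16728 genes tested, 1.32% were called lower and 0.132% higher. The median log2 fold change was -0.11 for the nuclear genes, -0.22 for the mt- genes and 0.01 for all genes. Not every member was lower. Of the Sdh genes, Sdhb was at -0.21, while Sdha (0.14), Sdhc (0.02) and Sdhd (0.04) lay above 0, and none passed. Under library totals the median of all genes was 0.12 and those of the nuclear and mt- genes 0.00 and -0.11, with 1.25% of all genes called lower and no member.

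mt-Nd6 was the 1 member that fell. It was at 444, 393 and 369 CPM in wt and 281, 278 and 317 CPM in R6/1 striata, with no overlap, and fell by 0.46 on the log2 scale (SE 0.09, adjusted p = 0.0474, edgeR). It kept the call in 1 of 6 fits without 1 library, the one without wt striatum replicate 2, and the adjusted p reached 0.224 in the others. It shares 14 of its 519 bases with mt-Nd5 on the other strand, and reads over those bases may be assigned to either gene.

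Striatal libraries with the same replicate number varied together, although wt striatum replicate 1 and R6/1 striatum replicate 3 did so nearly as much (correlation 0.24). The comparison was also fitted with the replicate number as a block, a pairing taken from these data. Then 7.11% of all genes were called lower and 2.83% higher, and 4 mt- and 5 nuclear members fell. The 4 mt- genes all encode complex I subunits. mt-Nd6 had an adjusted p of 0.00818 with the block. mt-Nd2 was at 9489, 8904 and 8120 CPM in wt and 6886, 6899 and 6981 CPM in R6/1 striata (-0.35, adjusted p = 0.0139 with the block, 0.0872 without, edgeR). mt-Nd1 was at 12003, 11839 and 10592 CPM in wt and 9435, 9211 and 9349 CPM in R6/1 striata (-0.30, adjusted p = 0.0285 with the block, 0.113 without, edgeR). mt-Nd3 had an adjusted p of 0.0372 with the block, and with its copy added the blocked log2 fold change was -0.42 and the adjusted p 0.0518.

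The 5 nuclear genes that passed with the block were Ndufa5 (-0.30), Atp5mpl (-0.31), Cox7c (-0.23), Ndufb10 (-0.23) and Cox7a2 (adjusted p = 0.0497). Ndufa5 and Ndufb10 are accessory subunits of complex I, and Atp5mpl is a small membrane subunit of complex V. Ndufa5 was at 40.7, 42.4 and 38.8 CPM in wt and 33.1, 32.6 and 33.3 CPM in R6/1 striata. Its groups did not overlap. Of the other mt- genes, mt-Nd4, mt-Nd4l, mt-Nd5 and mt-Cytb were lower in each R6/1 striatum than in each wt striatum without passing, at -0.25, -0.22, -0.19 and -0.23. Groups failed to overlap for 7 of 13 mt- genes and 26 of 93 nuclear genes (28.0%), beside 25.6% of all genes tested.

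mt-Co1 was at 40323, 38923 and 35075 CPM in wt and 35875, 32448 and 34493 CPM in R6/1 striata (log2 fold change -0.15, not called). mt-Co2 and mt-Co3 could not be placed from the deposited counts. mt-Co2 was at 5936, 5129 and 5513 CPM in wt and 6902, 4736 and 5629 CPM in R6/1 striata, a log2 fold change of 0.06. With the copy it was at 13861, 13723 and 12061 CPM in wt and 11741, 11494 and 11424 CPM in R6/1 striata, and the value was -0.20 (adjusted p = 0.242, edgeR). mt-Co3 went from -0.13 ± 0.19 to -0.28 ± 0.09 (adjusted p = 0.144, edgeR; 0.0466 with the block), and mt-Atp6 from -0.13 to -0.26 (adjusted p = 0.174, edgeR). With the copies added, all 13 mt- genes had a log2 fold change below 0 in the striatum, and mt-Nd6 alone was called, beside 1.33% of all genes called lower.

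**Figure D3:**
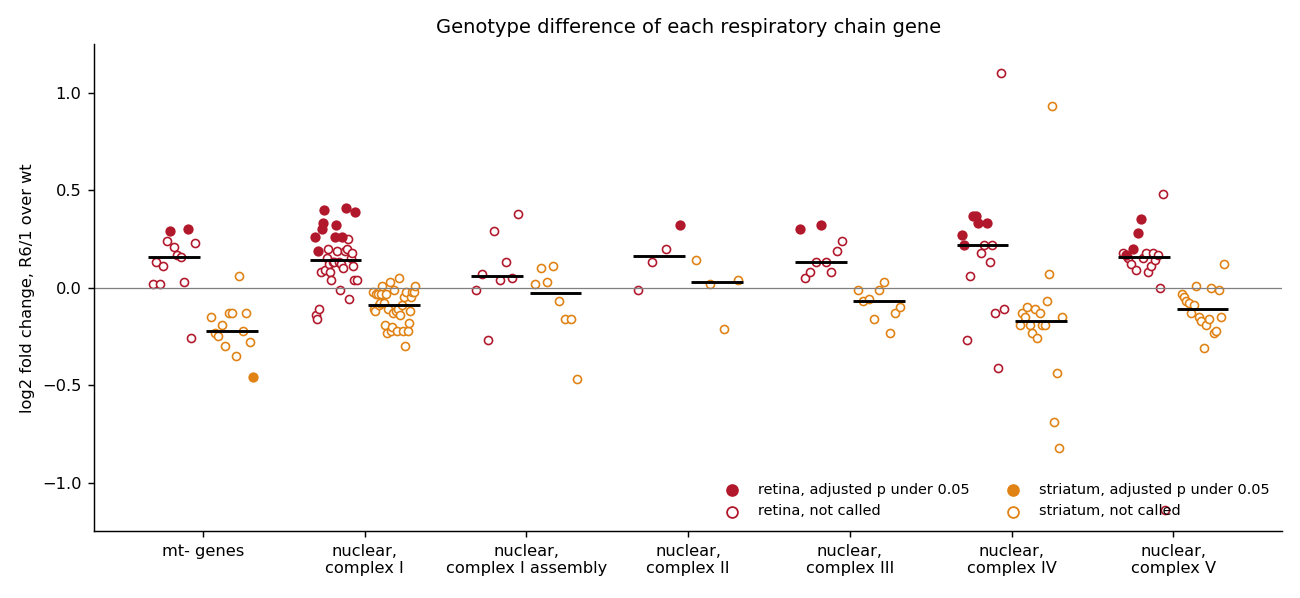
Log2 fold change of each member, R6/1 over wt, for the mt- genes and for the nuclear genes by complex, in retina (red) and striatum (orange). Filled points passed at an adjusted p under 0.05, bars are medians, and 2 genes (Cox6a2 and Cox8b in the retina) lie above the axis. In each complex the retinal median was above the striatal one, at 0.22 against -0.17 for complex IV.

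Whether the genotype effect differed between the tissues was tested as 1 contrast over all 12 libraries, which also enter the comparisons within each tissue. Of 92 nuclear genes tested, 12 had a genotype effect that was higher in the retina and none one that was higher in the striatum, and 4 of the 13 mt- genes had a higher retinal effect. Over all 15731 genes, 3.38% were called higher and 4.86% lower, and among genes with a mean of at least 10 CPM 4.26% and 6.40%. The shares of all genes called higher and lower were 3.09% and 4.04% with the block, 4.27% and 6.00% with DESeq2, and 4.05% and 3.53% under library totals. The median of the difference was 0.26 for the nuclear genes and 0.30 for the mt- genes, and -0.02 for all genes. At an unadjusted p under 0.05, 3 nuclear genes and no mt- gene were lower with edgeR, and DESeq2 called none lower. The share of all genes at that unadjusted limit is not given.

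mt-Nd1 had the smallest p among the members. In wt and R6/1 retinas it was at 7357, 7829 and 8029 CPM and at 9111, 9111 and 8594 CPM, so that the genotypes moved apart upwards, while in the striatum every R6/1 value was lower. The difference was 0.51 ± 0.10 (adjusted p = 0.00565, edgeR). Cox8a followed with 0.52 ± 0.10 (adjusted p = 0.00709, edgeR), with striatal values of 109, 112 and 112 CPM in wt and 98.3, 102 and 92.6 CPM in R6/1 mice. mt-Nd6 had a difference of 0.66 ± 0.14 (adjusted p = 0.00841, edgeR) and mt-Nd2 one of 0.49 ± 0.10 (adjusted p = 0.00894, edgeR). Atp5o and Cox7b gave 0.47 and 0.48 (adjusted p = 0.013 and 0.0135, edgeR). These 6 genes, and Cox7c with 0.56, passed in each of the 12 fits that left out 1 library.

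Among all 12 nuclear genes, 5 belong to complex IV (Cox4i1, Cox6b1, Cox7b, Cox7c and Cox8a), 4 to complex I (Ndufa5, Ndufa8, Ndufab1 and Ndufb10), 2 to complex V (Atp5o and Atp5mpl) and 1 to complex II (Sdhb). mt-Atp8 was the fourth mt- gene. With the replicate block 11 nuclear and 3 mt- genes were called higher: mt-Atp8 (adjusted p = 0.0671, edgeR), Ndufb10 (0.0746) and Ndufab1 (0.0533) were lost, and Cox7a2 (0.0468) was gained. The call of Ndufa8 was lost without wt retina replicate 1 (adjusted p up to 0.0564), and Sdhb, Cox4i1, mt-Atp8, Cox6b1 and Ndufab1 kept theirs in 8, 6, 6, 5 and 5 of 12 fits without 1 library. Leaving out wt retina replicate 1 reduced the 12 nuclear genes to 5. Leaving out wt retina replicate 3, R6/1 retina replicate 1 or R6/1 striatum replicate 3 reduced them to 6, and wt striatum replicate 1 to 7. With the copies added, 8 mt- genes passed (beside 3.40% of all genes called higher and 4.85% lower), and these included mt-Nd3 with 0.77 (adjusted p = 0.00429, edgeR), mt-Atp6 with 0.51, mt-Co3 with 0.46 and mt-Co2 with 0.42. With the copies and the block, 7 passed and mt-Atp8 did not.

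The wt tissues were compared to show the state from which the mutants departed. All 13 mt- genes were called lower in wt retina than in wt striatum, with log2 fold changes from -0.99 for mt-Nd4 to -0.27 for mt-Nd3 and a median of -0.64. The call of mt-Nd3 was lost without wt retina replicate 1 or 3 or wt striatum replicate 1 (adjusted p up to 0.125). With the copies added all 13 were again called lower, from -0.99 for mt-Nd4 to -0.45 for mt-Cytb, with a median of -0.72. mt-Nd3 then gave -0.67 ± 0.12, mt-Atp6 went from -0.55 to -0.72, mt-Co2 from -0.52 to -0.75 and mt-Co3 from -0.70 to -0.81. Of 93 nuclear genes, 58 were called lower and 8 higher (62.4% and 8.6%), beside 38.5% and 37.8% of all 16864 genes tested, with a median of -0.40 and a median of all genes of -0.00. Complex IV had the lowest median, -0.83, and complex V the median -0.31. With the block, 38.3% of all genes were called lower.

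Cox4i1, the common isoform of subunit IV, was at 118, 139 and 119 CPM in wt retinas and 282, 281 and 244 CPM in wt striata (-1.10 ± 0.09, adjusted p = 3.16e-07, edgeR). Cox7c stood at 55.6, 56.3 and 48.4 CPM in wt retinas and 122, 111 and 104 CPM in wt striata (-1.08). Against this trend, Ndufv3, an accessory subunit of complex I, was at 79.8, 85 and 80.7 CPM in wt retinas and 36, 39.7 and 34.9 CPM in wt striata (1.15 ± 0.07, adjusted p = 4.83e-08, edgeR). Ndufb2 and Ndufb11 were also higher in wt retina, by 0.60 and 0.37.

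**Figure D4:**
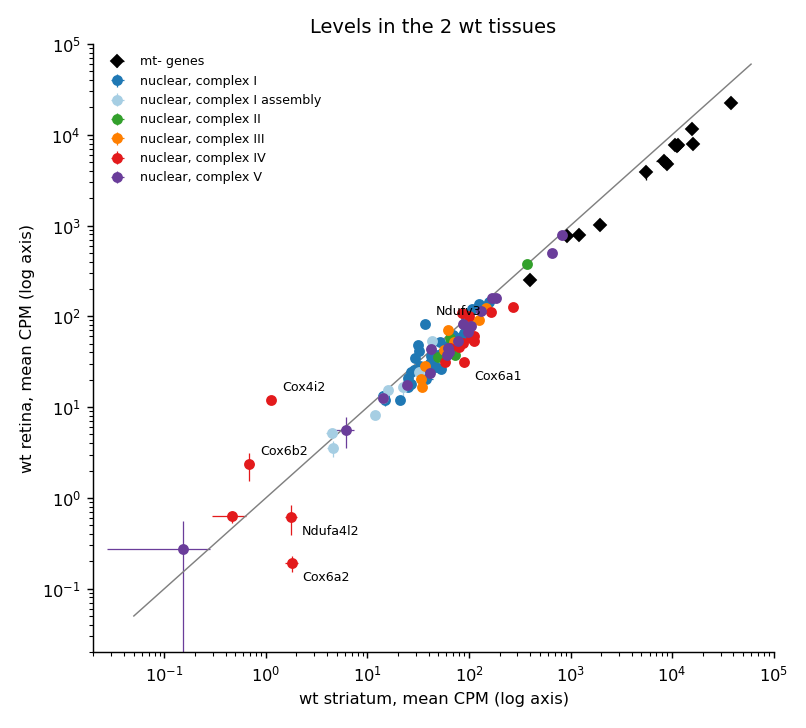
Mean CPM of each member in wt retina against wt striatum on log axes, with SD as error bars (n = 3 pools each), the line marking equal levels. The 13 mt- genes (black) all lay below the line, and Cox4i2 lay farthest above it. Members at 0 in either group are not drawn.

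Several complex IV subunits exist as paralogues that tissues use to different extents. The widest gaps between the wt tissues were among these genes. Not all of them differed widely: Cox7a1 (0.41) and Cox7a2l (-0.01) were not called, and Cox7a2 gave -0.54. Cox4i2, the isoform known from lung and from responses to low oxygen, was at 10.8, 12.4 and 12.3 CPM in wt retinas and 1.02, 1.22 and 1.17 CPM in wt striata, a log2 fold change of 3.37 ± 0.17 (adjusted p = 5.75e-09, edgeR). Per kilobase, Cox4i2 was at 16.3 and Cox4i1 at 166 CPM in wt retina, while in wt striatum they were at 1.55 and 357. Genotype left Cox4i2 at 9.93, 11 and 10.9 CPM in R6/1 retinas (log2 fold change -0.13, not called).

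Cox6a1, the common isoform of subunit VIa, was at 28.5, 35.3 and 30.2 CPM in wt retinas and 92.7, 83.8 and 88.8 CPM in wt striata (-1.50 ± 0.09, adjusted p = 2.09e-08, edgeR). Its muscle counterpart Cox6a2 was at 0.201, 0.146 and 0.225 CPM and at 2.09, 1.58 and 1.72 CPM in the same groups (-3.17, adjusted p = 1.82e-05, edgeR). Its retinal values lay near what 3 counts give in those libraries (0.196, 0.213 and 0.161 CPM), so that the size of this fold is uncertain, and the call was lost in 1 fit of all 12 libraries (adjusted p = 0.127, edgeR). In R6/1 striata Cox6a2 was at 0.868, 1.16 and 0.99 CPM, below each wt striatum without passing (adjusted p = 0.146, edgeR). Cox6b1 was lower in wt retina (-0.86), and Cox6b2, known from testis, was at 2.68, 2.93 and 1.4 CPM in wt retinas and 0.717, 0.611 and 0.737 CPM in wt striata (1.74 ± 0.35, adjusted p = 0.000808, edgeR). Ndufa4, a complex IV subunit despite its name, was higher in wt retina by 0.36 and its paralogue Ndufa4l2 was lower (-1.51). In R6/1 retinas Ndufa4 was at 104, 80 and 82.1 CPM, beside 107, 118 and 103 CPM in wt. DESeq2 called it lower there (-0.27, adjusted p = 0.0283) and edgeR did not (adjusted p = 0.0807).

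The muscle isoforms Cox6a2, Cox7a1 and Cox8b stood out in 1 library. In R6/1 retinas Cox6a2 was at 0, 7.25 and 0 CPM, Cox7a1 at 0.546, 2.42 and 0.997 CPM and Cox8b at 0.382, 2.62 and 0.111 CPM, the second value being replicate 2 each time. The 4 heart and skeletal muscle markers in the table summed to 175 CPM in that library and to at most 9.54 CPM in any wt retina, and their part in these values was not tested. None of the 3 isoforms passed in the retina with edgeR, while DESeq2 called Cox8b higher (2.88, adjusted p = 0.0246). Cox8b was at 0 in all 6 striata, which at 3 counts per library allows up to 0.134 to 0.189 CPM, for counting error only. The common isoforms Cox7a2 and Cox8a did not stand out in R6/1 retina replicate 2 (47.8 and 71.9 CPM). Cox7a2l, which takes part in supercomplex assembly, was at 95.6, 109 and 95 CPM in wt retinas and 103, 105 and 93.4 CPM in wt striata (log2 fold change -0.01). Cox7b2 was at 0 in all 6 retinas and at 0.184 to 0.418 CPM in wt striata.

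**Figure D5:**
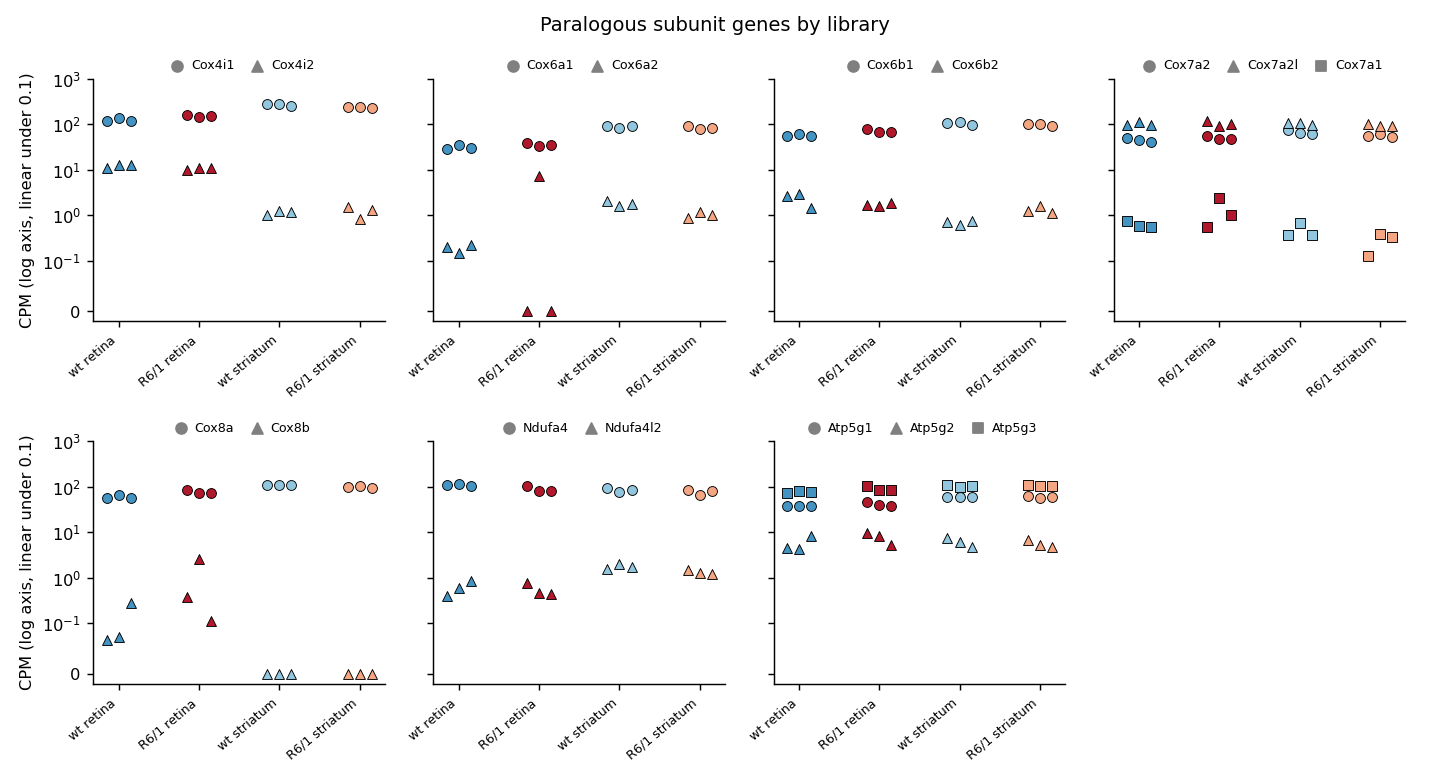
CPM of paralogous subunit genes in each of the 12 libraries (log axis, linear under 0.1), coloured by group and with a symbol for each gene. Cox4i2 was near 11 CPM in the retinas and near 1 CPM in the striata, and Cox6a2, Cox7a1 and Cox8b were highest in R6/1 retina replicate 2.

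The c-ring of complex V is built from 1 mature peptide encoded by 3 genes. Atp5g3 was the most abundant, at 108 CPM per kb in wt retina, beside 13.9 for Atp5g1 and 9.6 for Atp5g2. The annotated lengths used were 718.5, 2675.5 and 586 bases. Before division by length the wt retina means were 77.4, 37.2 and 5.63 CPM in the same order. In wt retinas Atp5g3 was at 74.4, 80.8 and 77 CPM and in R6/1 retinas at 105, 86.8 and 83.9 CPM (0.28 ± 0.08, adjusted p = 0.0233, edgeR). Atp5g1 was at 37, 37.2 and 37.4 CPM in wt and 45.7, 40.2 and 37.9 CPM in R6/1 retinas, a log2 fold change of 0.18 that did not pass. Atp5g2 scattered from 4.24 to 9.49 CPM over the retinas and was not called. Both Atp5g1 (-0.70) and Atp5g3 (-0.44) were lower in wt retina than in wt striatum.

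The nuclear genes are known targets of the transcription factors NRF1 and GABPA and of the estrogen-related receptors, and promoters were searched for these motifs. RefSeq promoters (GRCm38.p6, 250 bases before to 50 after the start) were found for 74 of the 94 nuclear genes. The NRF1 motif GCATGCGC was present on either strand in 12 (16.2%), beside 3.05% of 27025 genes. The YY1 motif AAGATGGCG was in 8 (10.8%), beside 1.64%, the GABPA motif CCGGAAGT in 5 (6.76%), beside 4.31%, and the receptor motif TCAAGGTCA in 2 (2.7%), Atp5g3 and Sdhd, beside 0.466%. None of the 4 motifs contains another. The letters describe the promoters and say nothing of binding. The 250 bases before the start are shown for Cox6a1 and Atp5g3. Cox6a1 had the lowest wt retina minus wt striatum log2 fold change among members with a mean of at least 10 CPM. Its NRF1 motif, which overlaps itself on both strands, is in capitals. Atp5g3 rose in the R6/1 retina, and its receptor motif is in capitals as read on the opposite strand. Both genes are on the minus strand, at chr5:115348959-115349208 and chr2:73911327-73911576:
Cox6a1: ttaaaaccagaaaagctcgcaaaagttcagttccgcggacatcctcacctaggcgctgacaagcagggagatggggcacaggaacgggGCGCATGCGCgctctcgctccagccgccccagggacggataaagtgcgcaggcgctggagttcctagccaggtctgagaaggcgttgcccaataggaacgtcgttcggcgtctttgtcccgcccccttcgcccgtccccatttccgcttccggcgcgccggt
Atp5g3: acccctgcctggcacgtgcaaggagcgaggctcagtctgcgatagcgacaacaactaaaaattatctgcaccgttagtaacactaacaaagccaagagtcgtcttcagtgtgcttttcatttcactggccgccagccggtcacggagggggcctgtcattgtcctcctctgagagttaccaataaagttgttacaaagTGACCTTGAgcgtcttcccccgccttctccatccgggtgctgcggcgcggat

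Of 13 genes that regulate mitochondrial biogenesis, 6 fell (46.2%) and 1 rose (7.69%) in the R6/1 retina, beside 12.7% of all genes called lower and 9.58% called higher. Their median was -0.14. Esrrb, an estrogen-related receptor, was at 273, 310 and 313 CPM in wt and 126, 125 and 145 CPM in R6/1 retinas (-1.15 ± 0.07, adjusted p = 1.16e-08, edgeR). It is known from rods, and was at 1.08, 0.967 and 1.47 CPM in wt striata. Ppargc1b, a coactivator of these receptors, fell by 0.67 on the log2 scale (adjusted p = 3.97e-06, edgeR), from 41.2, 38.2 and 42.3 CPM to 25.8, 23.5 and 25.4 CPM. Gabpb2, a partner of GABPA, fell by 0.43 and Nrf1, the gene of the factor whose motif is given above, fell by 0.25 (adjusted p = 0.0112, edgeR). Ppargc1a, the best known coactivator, was at 108, 105 and 106 CPM in wt and 99.8, 106 and 104 CPM in R6/1 retinas (log2 fold change -0.01).

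The complexes are fed and linked by electron carriers. Of 17 genes of electron carriers and coenzyme Q synthesis, 7 rose in the R6/1 retina (41.2%, beside 9.58% of all genes) and none fell (beside 12.7%), with a median of 0.20. Etfb, an electron transfer flavoprotein, rose from 13, 14.3 and 16.1 CPM to 18.4, 18.7 and 19.6 CPM (0.42 ± 0.10, adjusted p = 0.00703, edgeR). Gpd2, the mitochondrial glycerol phosphate dehydrogenase, rose by 0.41 (adjusted p = 0.0126, edgeR) and Coq7, of coenzyme Q synthesis, by 0.30 (adjusted p = 0.0233, edgeR). The call of Gpd2 was lost without R6/1 retina replicate 3 or wt retina replicate 1, and that of Coq7 in 4 of 6 fits without 1 library. Cycs, somatic cytochrome c, rose by 0.20 (adjusted p = 0.0379, edgeR) and passed in 1 of those 6 fits; it was named here for its role.

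Among 16 genes of mitochondrial DNA transcription and maintenance, 2 fell (12.5%) and 1 rose (6.25%) in the R6/1 retina, close to the 12.7% and 9.58% of all genes, so that the counts set the list apart in neither direction. Polg2, the accessory subunit of the mitochondrial polymerase, was at 45.3, 46.7 and 46.5 CPM in wt and 25.9, 19.2 and 22.2 CPM in R6/1 retinas (-1.01 ± 0.09, adjusted p = 1e-06, edgeR). Top1mt (-0.31) and Ssbp1 (0.21) passed at adjusted p = 0.0438 and 0.0446 and kept the call in 2 and 1 of 6 fits without 1 library. Among 17 genes of mitochondrial RNA processing and stability, 1 fell (5.88%) and 3 rose (17.6%), beside the same 12.7% and 9.58%. Lrpprc, which stabilises mitochondrial mRNAs, fell by 0.22 (adjusted p = 0.0139, edgeR), while Rexo2 and Pnpt1, both ribonucleases, rose by 0.28 and 0.24. The call of Lrpprc was lost without wt retina replicate 1 (adjusted p up to 0.0707), and Rexo2 and Pnpt1 kept theirs in 2 and 3 of 6 fits without 1 library.

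Of 40 assembly factors outside the Ndufaf genes, 4 fell (10%) and 3 rose (7.5%) in the R6/1 retina, both below the 12.7% and 9.58% of all genes. Uqcc3, of complex III assembly, fell from 33.1, 33 and 31.3 CPM to 21.1, 16.7 and 20.9 CPM (-0.70 ± 0.10, adjusted p = 4.46e-05, edgeR), and Atpaf1, of complex V assembly, rose by 0.30. Lyrm7, a chaperone for the Rieske protein Uqcrfs1, fell in both tissues. It was at 12, 10.8 and 15.2 CPM in wt and 9.06, 6.64 and 9.14 CPM in R6/1 retinas (-0.59, adjusted p = 0.0112, edgeR), and at 15.6, 11.8 and 13.3 CPM in wt and 9.17, 8.13 and 8.19 CPM in R6/1 striata (-0.68, adjusted p = 0.0463, edgeR; 0.00439 with the block). The retinal call of Lyrm7 was lost without wt retina replicate 3 (adjusted p up to 0.0759), and the striatal call held in 1 of 6 fits without 1 library, the one without wt striatum replicate 2. Of 19 markers of mitochondrial content, Hspd1, a matrix chaperonin, rose by 0.20 and Immt, an organiser of the cristae, fell by 0.18, and the median was 0.10. Each is 5.26% of the list, below the shares of all genes. Hspd1 kept its call in 4 of 6 fits without 1 library and Immt in 1. Lyrm7 was the only gene of the 6 lists called in the striatum by edgeR without the block.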

How the data were processed

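RNA of retina and striatum was measured in 12 libraries, with groups taken from the sample labels. The authors made stranded poly(A) mRNA libraries, processed reads with CASAVA and Trimmomatic, and quantified them by Salmon (build GRCm38/mm10), in versions not given in the sources used here. The deposited values are estimated counts, whole numbers that are not normalized. Of the 17579 IDs, 17527 were in GENCODE M21, which gave symbols, coordinates and transcript lengths (the median of basic protein-coding transcripts). No column was left unmapped.

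The test was the robust quasi-likelihood F-test of edgeR 4.0.16 (R 4.3.3, TMM factors). Genes entered a fit if its libraries held 10 or more counts in sum (in each tissue for the difference). Benjamini-Hochberg adjustment covered all genes of a fit, and calls needed an adjusted p under 0.05. Printed CPM use TMM factors over all 12 libraries, so their ratios differ from the fitted log2 fold changes by up to 0.04 (log2) for members with a mean of at least 10 CPM. Nothing in the labels says that pools of a group came from separate cohorts, and p-values measure the spread between pools. Counting error alone is small at these depths for genes over 10 CPM.

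The alternatives were DESeq2 1.42.0, DESeq2 size factors, library totals, TMM without mt- genes, other count filters, a replicate block, 1 fit of all 12 libraries, an adjusted p under 0.01, and leaving out each library. Added after the data were seen were the chromosome 1 copies and DESeq2 with the block. Copies were aligned with Biopython 1.88. Tables were made with Python 3.11.15, numpy 2.4.6 and pandas 2.3.3 and drawn with matplotlib 3.10.9. The fit was tested on simulated data.

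Same-numbered libraries deviated together in the striatum (correlations over 10445 genes of 0.274, 0.329 and 0.257 between wt and R6/1), as seen in the data and not stated by the labels, and the block is therefore given beside striatal results. Among differently numbered striatal pairs, wt replicate 1 with R6/1 replicate 3 gave 0.24 and the others ran from -0.389 to -0.0421. In the retina the same-numbered correlations were 0.124, -0.0943 and 0.0511. Between R6/1 retina and R6/1 striatum they were 0.242, 0.119 and 0.179, and between wt retina and wt striatum -0.0261, 0.0195 and 0.000763. Whether pools with 1 number held the same animals is not stated, and the block is given beside the tissue difference where it changes a call.

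The members and lists were chosen with earlier results of these data known. Named genes are the 13 mt- genes, the 6 nuclear genes called with the smallest p in each direction and genotype comparison, the 6 members with the smallest p for the difference, the 5 called with the widest gap in each direction between the wt tissues (mean of at least 1 CPM), the paralogue sets, the c-ring and Sdh genes, and up to 3 genes of each accompanying list in each genotype comparison. Other genes are named to complete a count, for an unnamed call, or, for Cycs, Nrf1 and Ppargc1a, for their role after values were seen.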

Additional observations from a re-analysis of the deposited data

Results flagged for a closer look

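These results were singled out because the genotype effect differed between retina and striatum in the test of the difference over all 12 libraries (edgeR). Among the mt- genes, the retinal minus striatal effect was 0.51 for mt-Nd1, 0.66 for mt-Nd6, 0.49 for mt-Nd2 and 0.40 for mt-Atp8. Among the complex IV genes it was 0.52 for Cox8a, 0.48 for Cox7b, 0.56 for Cox7c, 0.42 for Cox4i1 and 0.40 for Cox6b1. Among the complex I genes it was 0.47 for Ndufa5, 0.43 for Ndufa8, 0.36 for Ndufab1 and 0.32 for Ndufb10. Sdhb of complex II gave 0.37, and Atp5o and Atp5mpl of complex V gave 0.47 and 0.46. Neither tissue passed alone with edgeR without the replicate block for mt-Nd1, mt-Nd2, Sdhb, Ndufa5, Ndufb10 and Atp5mpl. Their retinal log2 fold changes were 0.24, 0.17, 0.20, 0.20, 0.12 and 0.18.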

How the results depend on the processing

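Numbers of members called moved most. For nuclear genes called higher in the R6/1 retina, 23 as reported, there were 53 under library totals, 15 with DESeq2 and the block and 11 at an adjusted p under 0.01, and 11 to 26 when 1 library was left out. For mt- genes called higher there, 2 as reported, there were 1 in 1 fit of all 12 libraries and at an adjusted p under 0.01, 6 with DESeq2, 5 with DESeq2 and the block, 5 with the copies (with and without the block) and 8 under library totals, and 1 to 3 without 1 library. DESeq2 called 1 nuclear and 1 mt- gene lower, and leaving out 1 library gave 0 to 2 and 0 to 1. In the striatum, nuclear genes called lower numbered 3 in 1 fit of all libraries, 1 with DESeq2, 5 with the block (also with the copies), and 0 to 1 without 1 library. The mt- genes called lower there, 1 as reported, numbered 3 in 1 fit of all libraries, 5 with DESeq2, 7 with DESeq2 and the block, 4 with the block (also with the copies), 0 with DESeq2 size factors, library totals or an adjusted p under 0.01, and 0 to 2 without 1 library. For the difference, nuclear genes called higher numbered 5 with DESeq2 and the block, 1 at an adjusted p under 0.01 and 5 to 15 without 1 library (lower 0 to 1), and mt- genes 7 with DESeq2, 8 with the copies and 7 with the copies and the block. The cause of these shifts was not tested. The share of all genes called is not given for DESeq2 with the block, DESeq2 size factors, 1 fit of all 12 libraries or an adjusted p under 0.01. Nor is it given for the copies with the block or for the fits without 1 library, here or above. Counts from these fits therefore cannot be told from a shift over all genes.

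With the copies the mt- share was 8.57% in wt retina, 10.2% in R6/1 retina, 13.8% in wt striatum and 12.7% in R6/1 striatum. The retinal ratio difference was 0.04 by medians. Signs turned for mt-Nd3 in the retina (0.36 with the copies, with or without the block) and in the difference (0.77, 0.75 with the block, 0.02 under library totals, -0.11 to 0.10 without 1 library), for mt-Co2 in the striatum (-0.20, -0.19 with the block, -0.10 to 0.18 without 1 library) and in the difference (-0.05 to 0.23 without 1 library), and for mt-Co3 in the striatum (-0.27 to 0.05 without 1 library). In the retina, 1 fit of all libraries gave -0.01 for mt-Co1, -0.01 for mt-Nd4 and -0.00 for mt-Nd4l, and leaving out 1 library gave -0.03 to 0.06, -0.00 to 0.05 and -0.02 to 0.07. In the retina, where same-numbered libraries did not pair, the replicate block also brought mt-Nd6 past the threshold (adjusted p = 0.0346, edgeR).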
